A study of Mus musculus with 2 samples.

Results

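The genes described here encode 8 members of the S100 family of calcium-binding proteins, S100a8, S100a9, S100a4, S100a6, S100a10, S100a11, S100a13 and S100a16. They were chosen by symbol, as rows of the count matrices with these names, and not by a rule on their values. Earlier results of these data were known when the choice was made. The matrices held 31053 genes, of which 17 carried an S100 name (S100pbp, a gene for a binding protein, was not counted), and all 8 members were found in both matrices.

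Most S100 proteins are small dimers with EF-hand loops that change shape when they bind calcium and then grip a partner protein. S100a8 and S100a9 form calprotectin, an abundant cytosolic complex of neutrophils that can be released and act on Tlr4 and RAGE as an alarm signal. S100a4, S100a6, S100a10 and S100a11 bind annexins, myosin and other partners of the membrane and cytoskeleton, and S100a13 takes part in the export of growth factors that lack a signal peptide. Less is known of S100a16, which is widely expressed outside blood cells. In the lung, calprotectin is used as a sign of neutrophils, and S100a4 is often used as a marker of fibroblasts although leukocytes express it too.

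Cells came from mice in which the NG2-CreERTM driver, active where the Cspg4 promoter is active, had been combined with the Ai14 tdTomato reporter and induced with tamoxifen at 2 mg for each 30 g of body weight, with 7 days of rest. Mice of the Hypoxia group then spent 21 days at 10% inspired oxygen, and the Normoxia group is labelled as not treated. The labels give sorted tdTomato cells, whereas the results text of the study describes wild-type lung depleted of CD45 and CD326 cells. The driver is not restricted to pericytes. There was 1 library in each group, so the spread between animals is unknown, the differences below carry no test, and each compares these 2 libraries. The labels count 3 replicates for each group and the results text names 3 hypoxic animals, but each group has 1 matrix. How the replicates relate to it is not given in the sources used here.

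The Normoxia library gave 293 retained cells with a median of 3135 UMIs (distinct captured molecules), and the Hypoxia library gave 453 with a median of 2818. The markers did not bear out the sorted label. Cspg4 had a UMI in 1 Normoxia and 2 Hypoxia cells, at least 3 of 9 pericyte markers were found together in 12 and 4 cells, and no cluster was pericyte-like. In Normoxia the most frequent of the 9 were Kcnj8 (35 cells, and 11 in Hypoxia), Abcc9 (30 and 3) and Pdgfrb (27 and 10). Ptprc, the leukocyte gene for CD45, had a UMI in 57 and 126 cells. Clusters were named from marker genes with every S100 gene left out of the clustering. The endothelial cell-like class had 114 Normoxia and 212 Hypoxia cells, with cluster 2 its largest cluster in Normoxia (58 cells, leading genes Plvap and Gpihbp1) and cluster 6 in Hypoxia (103 cells, leading genes Ntrk2 and Cdk19). Fibroblast-like cells numbered 39 and 21, macrophage or monocyte-like cells 28 and 45, B cell-like cells 31 and 54, T or NK cell-like cells 13 and 76, type 2 innate lymphoid cell-like cells 17 and 5, and neutrophil-like cells 2 and 28. Cluster 5 (45 and 6 cells, leading genes Hhip and Igfbp3) and cluster 13 (4 and 6 cells, leading genes Ccl21a and Mmrn1) were left unnamed. Rgs5 and Kcnj8 of the pericyte list and Acta2 were also among the leading genes of cluster 5. Of the barcodes, 2 occurred in both libraries.

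All 8 genes lie on mouse chromosome 3 (GRCm38, GENCODE M21). S100a13 (90514435 to 90524581), S100a16 (90537254 to 90543151), S100a4 (90603771 to 90606045), S100a6 (90612882 to 90624181), S100a8 (90668978 to 90670035) and S100a9 (90692632 to 90695721) stand in 1 stretch, and S100a11 (93520488 to 93526287) and S100a10 (93555080 to 93564643) in another. S100a9 is on the minus strand and the other 7 on the plus strand. Between S100a8 and S100a9, whose proteins pair, lie 22596 bases. The annotation places Gm42674 over S100a4 on the same strand, and Gm42674 had 0 UMIs in either library.

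The sequences upstream of S100a8 and S100a9 are shown because these members had the largest ratios over all retained cells as measured and were found in the same cells. Each run ends before both the RefSeq and the GENCODE start of its gene, is given 5′ to 3′ on the gene's strand (RefSeq, GRCm38.p6), and has matches to TTNNGNAA, a loose form of the site of the myeloid C/EBP factors, in capitals. The S100a8 run is chr3:90668821-90668977 on the plus strand and the S100a9 run chr3:90695722-90695971 on the minus strand.
S100a8: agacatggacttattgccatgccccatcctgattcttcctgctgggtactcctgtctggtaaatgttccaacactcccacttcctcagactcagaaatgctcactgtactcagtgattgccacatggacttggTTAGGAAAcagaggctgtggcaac
S100a9: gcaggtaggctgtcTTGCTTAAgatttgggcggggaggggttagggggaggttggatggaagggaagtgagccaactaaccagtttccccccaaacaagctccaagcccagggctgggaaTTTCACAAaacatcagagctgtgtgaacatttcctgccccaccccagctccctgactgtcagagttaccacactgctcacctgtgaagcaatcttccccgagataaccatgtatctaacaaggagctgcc
In the 250 bases before the RefSeq start, searched on both strands, S100a8 had 1 match, 117 bases before the start, and S100a9 had 2, at 236 and 130 bases. None was found before S100a4, S100a6, S100a11, S100a13 or S100a16, and 36.8% of 32851 promoter windows of this length held at least 1. The core of the hypoxia response element was searched in both of its forms. ACGTG was present before S100a11, where 2 matches on opposite strands overlap at 223 and 222 bases, and in 16.6% of all windows. The other form, GCGTG, was present before S100a13 at 190 bases and in 28.2% of all windows. No upstream window was available for S100a10, so it was not searched for either motif.

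Over all retained cells, S100a8 and S100a9 were higher in the Hypoxia library, S100a6 was lower, and the other 5 genes differed by less than 2-fold. Levels are given as UMIs per 1000000 UMIs of the same cells (CPM), and fold is a ratio of CPM. S100a8 rose from 254 UMIs in the Normoxia library to 2283 in the Hypoxia library, or from 228 to 1434 CPM, a 6.28-fold higher level and a log2 ratio of 2.65 (2.46 to 2.84). S100a9 had 214 and 1613 UMIs, or 192 and 1013 CPM, with a log2 ratio of 2.40 (2.19 to 2.61). Ranges in parentheses are exact 95% intervals that cover counting error only and not the variation between animals or preparations.

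S100a6 went the other way, from 2457 UMIs to 1126, or from 2209 to 707 CPM, with a log2 ratio of -1.64 (-1.75 to -1.54). With every cell given equal weight the S100a6 ratio was -0.67, short of 2-fold. Equal weight counts cells with few UMIs more, and these include neutrophil-like cells. The 28 neutrophil-like Hypoxia cells had a median of 690.5 UMIs and 7780 CPM of S100a6, and Normoxia had 2 such cells. Outside this class, summed S100a6 levels were 2197 CPM in Normoxia and 592 CPM in Hypoxia. The part of this class in the equal-weight values was not tested. S100a4 (321 and 189 CPM, log2 ratio -0.76), S100a10 (925 and 605 CPM, -0.61) and S100a11 (805 and 580 CPM, -0.47) were lower in Hypoxia by less than 2-fold, and S100a11 was higher by 0.43 with equal weight per cell. S100a13 had 370 and 377 CPM, and its log2 ratio of 0.03 had an interval of -0.16 to 0.21. S100a16 had 302 and 399 CPM, a log2 ratio of 0.40 (0.21 to 0.60).

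Among the 9813 genes with at least 20 UMIs, 6.21% were at least 2-fold higher and 8.13% at least 2-fold lower in Hypoxia. Of the 8 S100 genes, 2 were past 2-fold in the first direction and 1 in the second. The median log2 ratio was -0.22 over the 8 genes and 0.04 over all of these genes. Part of the S100 differences moved with the make-up of the libraries. When each class was given the same share of both libraries, the log2 ratio was -0.12 for S100a8 and -0.36 for S100a9, in both cases with a Normoxia level that came from 2 neutrophil-like cells, -1.17 for S100a6 and 0.11 for S100a16.

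**Figure D1:**
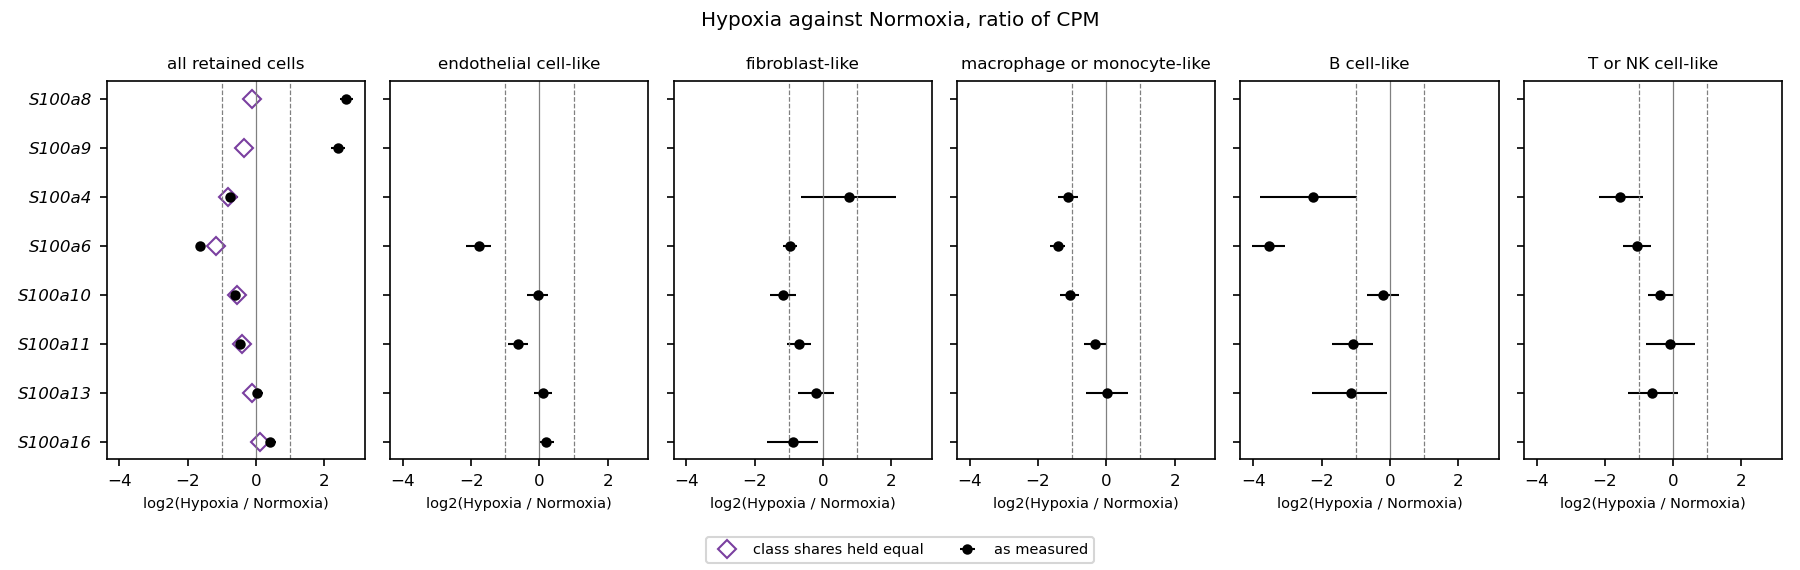
Log2 ratio of CPM, Hypoxia over Normoxia, for the S100 genes over all retained cells and within 5 cell classes; points are ratios, bars exact 95% intervals for counting error, dashed lines mark 2-fold, and open diamonds give the ratio with class shares held equal. S100a8 and S100a9 stand at 2.65 and 2.40 as measured and at -0.12 and -0.36 with equal shares, while S100a6 lies below 0 in each of the 6 panels.

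The genes of calprotectin were held by few cells. In the Normoxia library, 2 neutrophil-like cells carried 252 of 254 S100a8 UMIs (121 and 131 each) and 211 of 214 S100a9 UMIs (87 and 124). In the Hypoxia library, 28 neutrophil-like cells carried 2256 of 2283 S100a8 UMIs, or 98.8% (98.3 to 99.2%), and 1598 of 1613 S100a9 UMIs, or 99.1% (98.5 to 99.5%). The Hypoxia neutrophil-like cells had from 11 to 238 S100a8 UMIs each with a median of 61, and from 2 to 154 S100a9 UMIs with a median of 44.5. Every one of these cells held more S100a8 UMIs than any cell outside the class in its library, where the highest was 2. For S100a9 the lowest neutrophil-like cell and the highest other cell both had 2.

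Neutrophil-like cells were small libraries, with 1111 and 1469 UMIs in Normoxia and a median of 690.5 in Hypoxia. S100a8 and S100a9 together took 16.7% and 19.6% of all UMIs of the 2 Normoxia cells. In the 28 Hypoxia cells the pair took from 1.02% to 30.9% of a cell's UMIs, with a median of 14.9%. Within the class, the S100a8 level was 97674 CPM in Normoxia against 88204 in Hypoxia (log2 ratio -0.15, -0.34 to 0.05), and S100a9 had a log2 ratio of -0.39 (-0.60 to -0.17). The Normoxia side of both values is 2 cells.

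The name of the class rests on 8 of 12 neutrophil markers, and neither S100a8 nor S100a9 was among them. In the Hypoxia cells, the naming markers were Retnlg with 200 UMIs, Hdc 33, Csf3r 31, Lcn2 30, Mxd1 27, Mmp9 22, Cxcr2 20 and Il1r2 16. Mmp8 had 5 UMIs and Ly6g 1. Ngp and Camp, granule genes of immature neutrophils, had 0. The S100a8 share of the pair's UMIs was 54.4% (49.8 to 59.0%) in the Normoxia and 58.5% (57.0 to 60.1%) in the Hypoxia cells, and S100a8 had more UMIs than S100a9 in 23 of 28 Hypoxia cells.

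**Figure D2:**
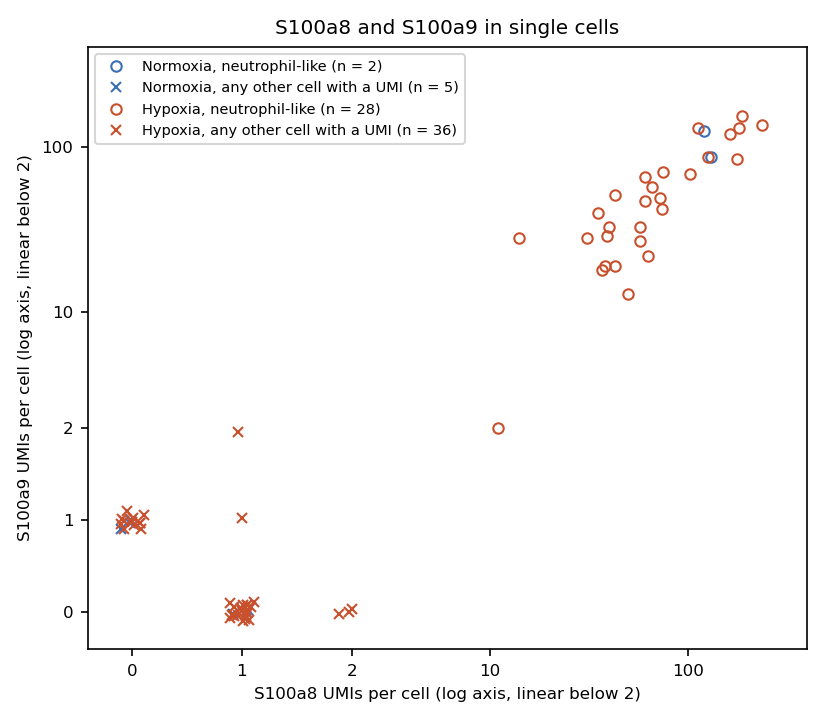
S100a8 and S100a9 UMIs per cell for cells with a UMI of either gene; circles are neutrophil-like cells, crosses any other cell, with a small random shift on the crosses, and colours give the library. Neutrophil-like cells reach 238 and 154 UMIs in Hypoxia, and the crosses stay at 2 UMIs or fewer.

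Outside the neutrophil-like class the counts were few. Free RNA in droplets gives UMIs of abundant genes in cells that do not express them. S100a8 had 2 UMIs in 291 Normoxia cells and 27 in 425 Hypoxia cells, and S100a9 had 3 and 15. A UMI of S100a8 was seen in 10 of 212 endothelial cell-like cells of Hypoxia (4.72%, median depth 2828.5 UMIs), in 7 of 45 macrophage or monocyte-like cells (15.6%, median 5442), in 3 of 21 fibroblast-like cells (14.3%, median 4470) and in 1 of 54 B cell-like cells (1.85%, median 1862). After thinning to 500 UMIs, 2 of the 342 endothelial cell-like, B cell-like and T or NK cell-like cells of Hypoxia held S100a8, or 0.585% (0.0709 to 2.10%), against 28 of 28 neutrophil-like cells. Thinning is a random draw. In the draw over the 45 macrophage or monocyte-like cells none held it, but in a separate draw 1 of 15 cells of cluster 14, part of this class, did. Without thinning, cluster 14 had 7 S100a8 UMIs in 5 of its 15 Hypoxia cells, or 84.4 CPM (33.9 to 174).

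The level outside the class, 17.2 CPM for S100a8 and 9.57 CPM for S100a9 in Hypoxia, was 0.0195% and 0.0153% of the level inside. The neutrophil markers did not share 1 such fraction: Retnlg stood at 0.0245% (3 UMIs outside), Mmp9 at 0.223% (3), Csf3r at 0.263% (5), Hdc at 0.297% (6), Cxcr2 at 0.408% (5), Mxd1 at 0.907% (15), Lcn2 at 1.31% (24) and Mmp8 at 1.63% (5), with 0 UMIs outside for Il1r2 and Ly6g. The S100a8 share of the pair was 64.3% (48.0 to 78.4%) outside and 58.5% inside. Outside neutrophil-like cells the pair summed to 4.50 CPM in the Normoxia library against 26.8 CPM in the Hypoxia library, the one with more neutrophil-like cells. The log2 ratio of S100a8 outside the class was 3.26 (1.27 to 6.37), and macrophage or monocyte-like cells had 38.1 CPM in Hypoxia against 0 UMIs in Normoxia. The part of free RNA in these counts was not tested.

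S100a6 and S100a11 were also high in the neutrophil-like class, and S100a10 was close to absent there. S100a6 had 18 UMIs in the 2 Normoxia cells and 199 in the 28 Hypoxia cells (7780 CPM, 6737 to 8940), with a UMI in each of the 30. S100a11 had 28 and 203 UMIs (7937 CPM in Hypoxia, 6882 to 9107), again in every cell. S100a10 had 0 and 1 UMIs, or 39.1 CPM (0.990 to 218) in Hypoxia. S100a4 had 0 and 3 UMIs, and S100a16 had 0 in both libraries, which at 3 counts allows up to 117 CPM in the 28 Hypoxia cells.

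**Figure D3:**
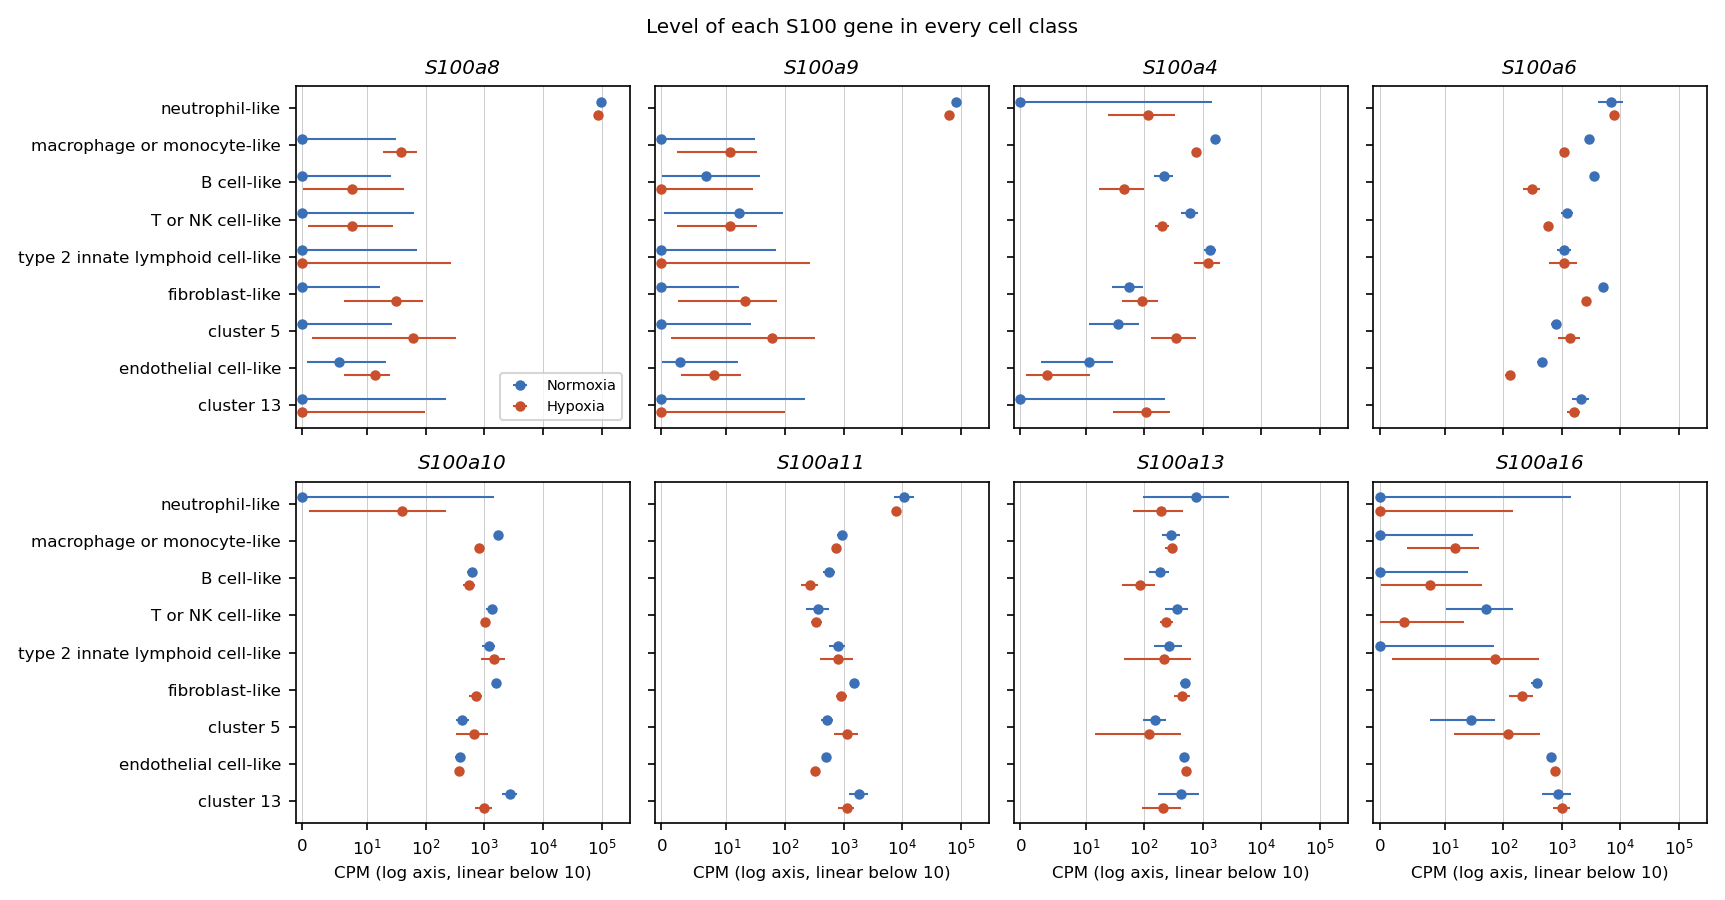
Level of each S100 gene (CPM) in every cell class, with Normoxia in blue and Hypoxia in red and bars for exact 95% Poisson intervals; the axis is logarithmic above 10 CPM and linear below. In Hypoxia, S100a8 reaches 88204 CPM in neutrophil-like cells and 17.2 CPM outside them. S100a16 is high in endothelial cell-like cells (662 CPM in Normoxia and 763 in Hypoxia) and low in lymphoid and myeloid cells. Its highest values there are 72.8 CPM (1 UMI) in type 2 innate lymphoid cell-like cells of Hypoxia and 50.1 CPM (3 UMIs) in T or NK cell-like cells of Normoxia.

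Among members with at least 20 UMIs in a named class, S100a6 and S100a4 gave the largest differences within classes. S100a6, also known as calcyclin, was highest, among Normoxia classes of at least 5 cells, in fibroblast-like cells, with 1134 UMIs or 5114 CPM (4821 to 5421), followed by B cell-like cells (3543 CPM), macrophage or monocyte-like cells (2894 CPM), T or NK cell-like cells (1236 CPM), type 2 innate lymphoid cell-like cells (1101 CPM), cluster 5 (796 CPM) and endothelial cell-like cells (451 CPM). The innate lymphoid class overlapped in its interval with both the T or NK cell-like class and cluster 5. In Hypoxia the order was neutrophil-like (7780 CPM), fibroblast-like (2611), cluster 13 (1603), cluster 5 (1367), type 2 innate lymphoid cell-like (1092), macrophage or monocyte-like (1074), T or NK cell-like (590), B cell-like (307) and endothelial cell-like (132). From cluster 13 to the macrophage or monocyte-like class, intervals of neighbours overlapped.

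In fibroblast-like cells, S100a6 was found in 38 of 39 Normoxia and 20 of 21 Hypoxia cells, and its log2 ratio was -0.97 (-1.17 to -0.77). S100a10 fell from 1592 to 709 CPM there (353 and 69 UMIs), a log2 ratio of -1.17 (-1.56 to -0.79). S100a11 had 1488 and 915 CPM, a log2 ratio of -0.70 (-1.06 to -0.36), and S100a16 374 and 206 CPM, a ratio of -0.86 (-1.65 to -0.15). S100a13 had 505 and 442 CPM, with a ratio of -0.19 (-0.74 to 0.33). Of 6 members with at least 20 UMIs in this class, 1 was at least 2-fold lower and 0 higher, beside 11.2% and 6.1% of 2392 genes, and their median log2 ratio was -0.78 against -0.10 for all of these genes.

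S100a4 was not a fibroblast gene in these libraries. Fibroblast-like cells had 12 UMIs in 4 of 39 Normoxia cells (54.1 CPM, 28.0 to 94.5) and 9 UMIs in 5 of 21 Hypoxia cells (92.5 CPM, 42.3 to 176). Macrophage or monocyte-like cells had 1643 CPM (1421 to 1889) in Normoxia and 758 CPM (656 to 871) in Hypoxia, and type 2 innate lymphoid cell-like cells had 1348 and 1238 CPM. T or NK cell-like cells had 601 and 205 CPM, with cluster 5 above them in Hypoxia (356 CPM, 131 to 776, from 6 UMIs), and endothelial cell-like cells had 11.4 and 4.02 CPM. In Normoxia the 2 top classes overlapped, and the T or NK cell-like class stood apart from both.

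In macrophage or monocyte-like cells, 3 of 5 members with at least 20 UMIs were at least 2-fold lower in Hypoxia and 0 higher, beside 6.69% and 13.1% of 2406 genes. These were S100a4 (197 and 199 UMIs, log2 ratio -1.12, -1.41 to -0.82), S100a6 (2894 and 1074 CPM, -1.43, -1.66 to -1.20) and S100a10 (1701 and 807 CPM, -1.08, -1.36 to -0.79). With equal weight per cell none of the 3 reached 2-fold (-0.58, -0.90 and -0.64). With the lower of the gene maxima given by the study, 4000, S100a4 stood at -1.79 and S100a6 at -2.08. S100a11 had a ratio of -0.32 (-0.66 to 0.03) and S100a13 of 0.01 (-0.59 to 0.63), but with 30 principal components they stood at 1.79 and 0.94. Cluster 8, with the complement genes C1qa and C1qb in its lead, held 20 of 28 Normoxia and 11 of 45 Hypoxia cells. Cluster 14, led by Chil3 and Ear2, held 15 Hypoxia and 0 Normoxia cells and had 133 CPM of S100a4 and 277 CPM of S100a6.

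Within cluster 8 alone the log2 ratio was -0.96 (-1.42 to -0.52) for S100a4, -1.41 (-1.81 to -1.02) for S100a6 and -1.44 (-1.93 to -0.97) for S100a10. Within cluster 12 (8 and 19 cells) it was -0.55 (-0.99 to -0.10), -1.02 (-1.35 to -0.69) and -0.72 (-1.20 to -0.22). Single cells weighed on these values: 1 Normoxia cell of cluster 8 held 76 of 147 S100a10 UMIs, and without the top cell of each library the S100a10 ratio of the class was -0.59. In 5 cells of each library the macrophage or monocyte markers were under 0.2% of UMIs, and these cells held 16 and 42 S100a10 UMIs and 39 and 26 S100a6 UMIs.

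B cell-like cells showed the widest gap. S100a6 had 520 UMIs in the 31 Normoxia cells (3543 CPM, 3245 to 3861) and 40 UMIs in the 54 Hypoxia cells (307 CPM, 219 to 418), of which 34 were in 1 cell. The log2 ratio was -3.53 (-4.03 to -3.06), and -6.04 without the top cell of each library. S100a4 had 32 and 6 UMIs, with a ratio of -2.24 (-3.79 to -0.97), S100a11 had 83 and 35 UMIs (-1.08, -1.69 to -0.49) and S100a13 had 27 and 11 (-1.12, -2.28 to -0.07). S100a10 had 91 and 71 UMIs, with a ratio of -0.19 (-0.66 to 0.28). Thus 4 of 5 members with at least 20 UMIs were at least 2-fold lower and 0 higher, beside 5.78% and 11.9% of 1384 genes. Of these, S100a4 and S100a6 were past 2-fold in every setting run, whereas S100a11 reached -0.37 with equal weight per cell and S100a13 reached -0.65 with a mitochondrial maximum of 10%.

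The S100a6 UMIs of the B cell-like class in Normoxia lay in the deeper cells. All 18 cells with at least 3000 UMIs held S100a6, from 3 to 87 UMIs each with a median of 22.5, and 0 of the 13 cells under 3000 did. The limit of 3000 was chosen after the values were seen. In Hypoxia 7 B cell-like cells had at least 3000 UMIs and 1 of them held S100a6. After thinning to 500 UMIs, 11 of 31 Normoxia and 3 of 54 Hypoxia cells held S100a6.

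The Normoxia cells with and without S100a6 also differed in Ighd, the heavy chain of immunoglobulin D on naive B cells. Ighd had 7 UMIs or 58.4 CPM in the 18 cells with S100a6 and 13 UMIs or 483 CPM in the 13 without. Cd79a, part of the B cell receptor, had 2120 and 1930 CPM, and Ighm 2880 and 2264 CPM. Over the whole class the libraries also differed: Ighd had 136 CPM in Normoxia and 890 in Hypoxia, Cd79a 2085 and 2669, and Ighm 2767 and 10093. The Ighm value of Hypoxia came mostly from few cells. Of its 1316 UMIs, 996 were in the 7 cells with at least 3000 UMIs (24255 CPM). The 47 other Hypoxia cells had 3582 CPM of Ighm. The 8 B cell markers summed to 17785 CPM in Hypoxia, against 8246 and 7832 CPM in the Normoxia cells with and without S100a6. The 6 plasma cell markers summed to 5959 CPM in Hypoxia. Of the other marker lists, the 10 fibroblast markers summed to 5 UMIs in the cells with S100a6 and 4 in those without, the 13 macrophage or monocyte markers to 5 and 0, the 12 T or NK cell markers to 5 and 0, and the 6 plasma cell markers to 75 and 8 (626 and 297 CPM). The 7 alveolar type 2 cell markers summed to 71 and 8 (593 and 297 CPM), the 5 erythroid markers to 56 and 17 (467 and 631 CPM), and the 6 ciliated cell markers to 39 and 0. The part of these genes and markers in the S100a6 values was not tested.

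**Figure D4:**
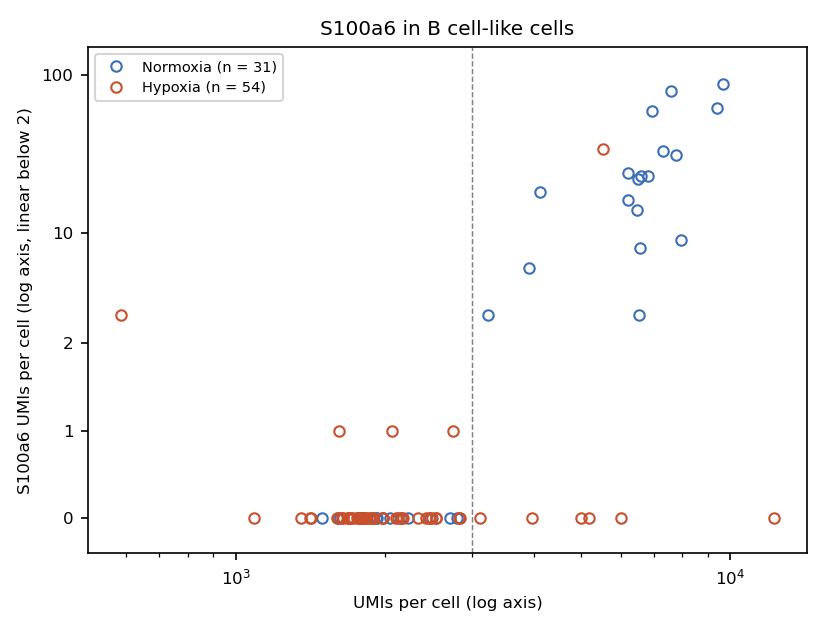
S100a6 UMIs against all UMIs of each B cell-like cell, both on logarithmic axes (linear below 2 on the vertical axis), Normoxia in blue (n = 31) and Hypoxia in red (n = 54); the dashed line stands at 3000 UMIs. All 18 Normoxia cells right of the line hold S100a6 and the 13 left of it hold none, while 1 of 7 Hypoxia cells right of the line holds it.

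In T or NK cell-like cells S100a4 had 36 UMIs, in 5 of 13 Normoxia cells, and 54, in 10 of 76 Hypoxia cells, a log2 ratio of -1.55 (-2.18 to -0.90), and S100a6 had 74 and 155 UMIs, a ratio of -1.07 (-1.48 to -0.65). S100a10 had 1337 and 1027 CPM, a ratio of -0.38 (-0.74 to -0.00). Its sign turned with trimmed mean scaling (0.0778). S100a11 had a ratio of -0.10 (-0.79 to 0.64) and S100a13 of -0.62 (-1.34 to 0.15). Of these 5 members, 2 were at least 2-fold lower and 0 higher, beside 6.98% and 9.23% of 1734 genes. S100a6 fell short of 2-fold with trimmed mean scaling (-0.61), a mitochondrial maximum of 10% (-0.84), equal weight per cell (-0.90) and some other settings, while S100a4 did not in any setting run (-2.72 to -1.09). With 22 UMIs of S100a11 and of S100a13 in 13 Normoxia cells, smaller differences were not detectable at this depth.

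Type 2 innate lymphoid cell-like cells, with 17 Normoxia and 5 Hypoxia cells, gave log2 ratios near 0 with wide intervals. S100a4 had 71 and 17 UMIs (-0.12, -0.98 to 0.66), S100a6 58 and 15 (-0.01, -0.94 to 0.83), S100a10 63 and 20 (0.28, -0.52 to 1.03) and S100a11 42 and 11 (0.01, -1.10 to 0.99).

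Endothelial cell-like cells held more of the S100a16 and S100a13 UMIs than any other class, and neither gene differed by 2-fold there. S100a16 counted 232 Normoxia and 569 Hypoxia UMIs (662 and 763 CPM), with a log2 ratio of 0.21 (-0.02 to 0.43), and these were 69.0% and 89.6% of its UMIs in the libraries. It was present in 83 of 114 and 171 of 212 cells. By cluster it had 896 and 812 CPM in cluster 2, 898 and 920 CPM in cluster 6, 557 and 391 CPM in cluster 10 (led by Car4) and 310 and 463 CPM in cluster 9 (led by Scgb1a1, Tpm1 and Vwf). Cluster 13, with the lymphatic genes Prox1 and Mmrn1, had 847 and 989 CPM.

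S100a13 had 171 and 388 UMIs in the class (488 and 520 CPM), a log2 ratio of 0.09 (-0.17 to 0.36), or 41.5% and 64.7% of its UMIs in the libraries. By level it did not stand apart from fibroblast-like cells (505 and 442 CPM), whose intervals overlapped with those of the endothelial cell-like class in both libraries. S100a10 had 133 and 272 UMIs (380 and 365 CPM), a ratio of -0.06 (-0.36 to 0.25), which ran from -0.91 with no mitochondrial maximum to 0.54 without cluster 9, and by cluster it went both ways: cluster 2 had 301 and 411 CPM, cluster 6 had 170 and 394 CPM (1.21, 0.13 to 2.56), cluster 9 had 765 and 415 CPM, and cluster 10 had 197 and 97.7 CPM. S100a11 had 175 and 240 UMIs, a ratio of -0.63 (-0.92 to -0.34).

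S100a6 was the member past 2-fold in the endothelial cell-like class, with 158 UMIs in 21 of 114 Normoxia cells and 98 in 13 of 212 Hypoxia cells, a log2 ratio of -1.78 (-2.16 to -1.41). This was 1 of 5 members lower and 0 higher, beside 5.17% and 5.82% of 6773 genes. Most of these UMIs were in cells with few endothelial transcripts. The 11 endothelial markers made up under 0.2% of all UMIs, a limit chosen after the values were seen, in 12 Normoxia and 6 Hypoxia cells of the class, nearly all in cluster 9 (11 and 6). These cells carried 123 of 158 and 78 of 98 S100a6 UMIs.

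In the remaining 102 and 206 endothelial cell-like cells, S100a6 had 35 and 20 UMIs, or 122 and 28.6 CPM, and a log2 ratio of -2.09 (-2.96 to -1.26). Of these UMIs, 27 and 10 still lay in the 8 and 12 remaining cells of cluster 9. Without cluster 9, the class had 11 and 10 S100a6 UMIs in 95 and 194 cells, a ratio of -1.44 (-2.83 to -0.06). In the 102 and 206 cells, S100a10 had 286 and 372 CPM (0.38, 0.02 to 0.76) and S100a11 314 and 255 CPM, a ratio of -0.30 (-0.67 to 0.08). S100a16, with 792 and 810 CPM (0.03, -0.19 to 0.26), and S100a13, with 572 and 548 CPM (-0.06, -0.33 to 0.21), differed little.

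**Figure D5:**
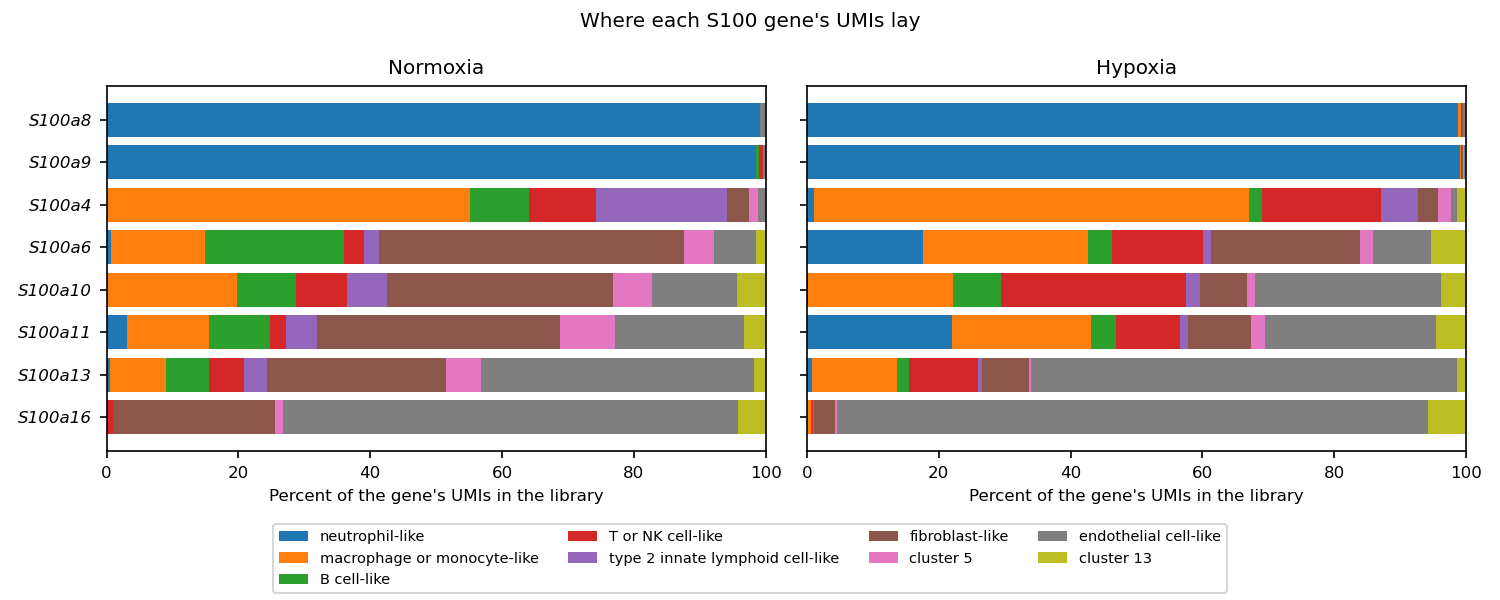
Percent of each S100 gene's UMIs that lay in each cell class, one bar per gene, Normoxia on the left and Hypoxia on the right. Neutrophil-like cells fill the S100a8 and S100a9 bars (over 98% in both libraries), and endothelial cell-like cells take 69.0% and 89.6% of the S100a16 bar.

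The unnamed cluster 5, which also held Rgs5 and Acta2 among its leading genes and had 45 Normoxia and 6 Hypoxia cells, gave 796 and 1367 CPM of S100a6 (log2 ratio 0.78, 0.06 to 1.44) and 521 and 1129 CPM of S100a11 (1.11, 0.30 to 1.86). S100a4 had 5 and 6 UMIs there, and S100a10 60 and 11 UMIs (0.63, -0.45 to 1.57). The Hypoxia values come from 6 cells.

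Of the 14 genes listed as receptors and partners of S100 proteins, 13 had at least 20 UMIs over all retained cells, and of these 0 were at least 2-fold higher and 1 was lower in Hypoxia, beside 6.21% and 8.13% of all genes compared. This was Ager, which encodes RAGE and in the lung is abundant on alveolar type 1 cells (21 and 11 UMIs, log2 ratio -1.45, and 0.21 without the top cell of each library). Anxa1, a partner of S100a11, had 260 and 143 CPM (log2 ratio -0.86, -1.12 to -0.60), and Bsg, a receptor of S100a9, 418 and 397 CPM. Tlr4, the receptor of released S100a8 and S100a9, had 16 and 15 UMIs. In endothelial cell-like cells 10 of the 14 could be compared, and 1 was higher (Ahnak) and 3 were lower (Ager, Anxa1 and Ly96), beside 5.82% and 5.17% of all genes compared there. Ly96 had 16 UMIs in each library there, and the interval of its log2 ratio reached 0 (-1.09, -2.18 to 0.01).

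Anxa2 and Ahnak, partners of S100a10, moved more than S100a10 did when summed over the endothelial cell-like class, but not in each cluster. Anxa2, which binds S100a10 as a heterotetramer, had 124 and 514 UMIs, or 354 and 689 CPM, a log2 ratio of 0.96 (0.68 to 1.26). Ahnak, a scaffold that binds this complex, had 60 and 271 UMIs, or 171 and 364 CPM, a ratio of 1.09 (0.68 to 1.51). In the cells with at least 0.2% endothelial UMIs the ratios were 1.06 (0.75 to 1.39) and 1.16 (0.72 to 1.63), beside 0.38 for S100a10. Anxa2 had a ratio above 0 in each of the 4 clusters, from 0.59 in cluster 2 to 1.49 in cluster 6, while Ahnak was at 1.61 in cluster 2 and at -2.32 (-4.76 to -0.48) in cluster 10. Ager and Anxa1 were mostly in the cells with few endothelial transcripts: outside them Ager had 1 and 2 UMIs and Anxa1 7 and 6.

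Among the other S100 genes, 3 had at least 20 UMIs. S100a1 had 154 and 256 UMIs (138 and 161 CPM), with a log2 ratio of 0.22 (-0.08 to 0.51), S100b 18 and 6, and S100g 4 and 52. All 52 Hypoxia UMIs of S100g were in 2 cells of cluster 9, and 45 were in 1 cell with 14567 of its 27369 UMIs from Scgb1a1, the secretoglobin of club cells. S100a3, S100a5, S100a7a, S100a14 and S100z had 5 UMIs or fewer in each library.

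Each gene was also set beside all others by the Pearson correlation of log2(CPM + 10) over 16 points, a point being a class of at least 5 cells in 1 library, among 2834 genes with a mean of at least 50 CPM. The points share libraries and differ in depth, so these values are descriptions. S100a8 was most like Trem1 (0.97), Retnlg (0.96) and Il1b (0.94), and S100a9 most like Retnlg (0.96), Trem1 (0.96) and Cxcr2 (0.93). S100a4 was most like Ccr2 (0.83), Rgs1 (0.80) and Fam105a (0.78). S100a16 followed Tmod2 (0.91), Rhoj (0.90) and Gng11 (0.89), and S100a13 followed Vat1 (0.85), Cd34 (0.80) and Map7d1 (0.76).

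S100a10 was most like Anp32b (0.91), Hspe1 (0.89) and Snrpf (0.88), S100a11 most like Prdx5 (0.82), Gabarap (0.81) and Calm3 (0.80), and S100a6 had the weakest likeness, with Glipr2 (0.69), Flna (0.64) and Ifitm1 (0.62).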

How the data were processed

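The deposited files are matrices of UMI counts for each gene in each barcode, not normalized, which the authors made with Cell Ranger 3.1.0 per the file headers from Chromium 3′ v3.1 libraries against mm10. Counts of 3′ UMIs do not scale with transcript length. Per the study's methods, barcodes were kept if they had 200 to 6000 genes and no more than 5% mitochondrial UMIs. The results text of the study also gives a maximum of 4000 genes against doublets, which was tried as an alternative. Doublets were not removed otherwise, and no doublet caller was run. Clustering used scanpy 1.11.5 (10000 UMIs per cell, 2000 variable genes without S100 genes, 15 principal components, 15 neighbours, Leiden resolution 1). Clusters were named for the class whose markers were most often found (at least 3, each in 25% of its cells and at 2 times the median CPM over clusters), if no other class had as many or led its 10 top genes.

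UMIs were summed per library and class. Sums have exact Poisson intervals, ratios exact conditional binomial and shares exact Clopper-Pearson intervals, at 95%, and a count of 0 was taken to allow 3. Shares of cells were thinned to 500 UMIs, below which no retained cell lay. The calculation was tested on simulated data. The named genes were the 8 members, the other S100 genes and listed partners by counts with a few values, and the 3 genes most like each member. The members and lists were chosen with earlier results of these data known. Positions come from GENCODE M21 on GRCm38 and upstream sequences from RefSeq GRCm38.p6.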

Additional observations from a re-analysis of the deposited data

Results flagged for a closer look

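Barcodes left out by the filters held calprotectin transcripts in the Hypoxia library. S100a8 had 163 UMIs in 10 of the 160 left-out Hypoxia barcodes and S100a9 had 95, against 0 of either gene in the 80 left-out Normoxia barcodes. Of these, 156 and 89 UMIs were in 3 barcodes over the mitochondrial maximum, each with a share of both genes at or above the lowest of the neutrophil-like cells (1.02%). The count of 28 neutrophil-like Hypoxia cells does not include them.

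S100a11 differed in direction between cells: its log2 ratio of Hypoxia over Normoxia was 1.11 in cluster 5 (45 and 6 cells) and -1.08 in B cell-like cells. The difference between these ratios was not tested, since there was 1 library per group.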

How the results depend on the processing

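The 48 values were recomputed under alternative settings, which gave 674 recomputed values in all. Of these, 602 stayed within the main interval (or within 1.5 times for a count). Some of them could not move. A changed UMI minimum acted only on the counts of members, and the clustering settings do not enter the ratios over all retained cells. The count of 602 is therefore not a measure of robustness. The share of Hypoxia S100a8 UMIs in neutrophil-like cells ran from 98.6% to 98.9%, and the log2 ratio outside them from 1.80 to 4.15. Over all cells, 0 members were 2-fold higher with class shares held equal, where S100a8 stood at -0.12 and S100a9 at -0.36, and 0 were 2-fold lower with equal weight per cell, where S100a11 stood at 0.43. S100a10 turned in T or NK cell-like cells with no mitochondrial maximum (0.0929), trimmed mean scaling (0.0778), equal weight (0.0289) and 10 principal components (0.16), and in macrophage or monocyte-like cells with 30 components (0.10). S100a11 turned in endothelial cell-like cells with no mitochondrial maximum (0.0125). The cause was not tested. S100a6 kept a negative ratio over all cells and in the 5 classes recomputed (B, T or NK, endothelial, fibroblast-like and macrophage or monocyte-like), from -0.61 to -6.04. In macrophage or monocyte-like cells the 3 members past 2-fold fell short of it with equal weight per cell, and S100a11 stood at 1.79 with 30 components. With 10 components, S100a6 in endothelial cell-like and S100a4 in fibroblast-like cells had under 20 UMIs and gave no value. Equal shares, the 0.2% limit, the removal of cluster 9 and the depth limit in B cell-like cells were chosen after seeing the data. No paired analysis was possible because each group had 1 library. Intervals cover counting error only, so differences between animals are outside them.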
